A study of Homo sapiens with 6 samples.

Results

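The genes described here are 10 genes that control passage from G1 into S phase: the kinases CDK2, CDK4 and CDK6, the D-type cyclins CCND1, CCND2 and CCND3, the E-type cyclins CCNE1 and CCNE2, the inhibitor CDKN1B (p27) and the retinoblastoma gene RB1. They were chosen by gene symbol, and all 10 were found among the 24526 genes of the count table. The cells were WM266.4, an established human melanoma line. The neg.si group held 3 cultures given negative control siRNA, and the RIPK4.si group held 3 cultures given a siRNA against the kinase gene RIPK4. Both groups were collected 48 h after transfection, and poly(A) RNA was sequenced. A siRNA is a short RNA duplex by which cells degrade matching transcripts, and a single one was used against RIPK4. Total counts reached 31688095, 30539087 and 30056850 in neg.si replicates 1, 2 and 3, against 28464057, 30751441 and 30772817 in RIPK4.si replicates 1, 2 and 3.

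In G1, D-type cyclins bind CDK4 and CDK6, and these kinases phosphorylate the RB1 protein, which otherwise holds E2F transcription factors inactive. E-type cyclins then bind CDK2 and complete the phosphorylation, while p27 binds and restrains cyclin E with CDK2. In melanoma the cyclin D, CDK4 and RB1 axis is often altered, most often through loss of the inhibitor p16 or gain of CCND1 or CDK4.

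The targeted gene was measured first. RIPK4 transcripts were at 85.8, 76.5 and 54.7 CPM in neg.si replicates 1, 2 and 3 and at 19.9, 16.7 and 21.5 CPM in RIPK4.si replicates 1, 2 and 3, where CPM is the count scaled to the normalized library size. Every RIPK4.si library was below every neg.si library, at 26.8% of the neg.si mean, so all 6 libraries matched their labels (log2 fold change -1.90, standard error 0.203, adjusted p = 0.0102 with edgeR). The call was lost without 1 library in 4 cases, with an adjusted p of 0.106 without neg.si replicate 2 and 0.094, 0.0622 and 0.0725 without RIPK4.si replicate 1, 2 or 3 with edgeR. The comparison of RIPK4.si with neg.si asks which transcripts of the G1 machinery differ when RIPK4 is silenced.

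CDK2 was the only one of the 10 genes called with edgeR, a call being an adjusted p under 0.05 over all 16297 genes tested, and it was lower in RIPK4.si. Over all genes tested 0.767% were called, and 0.393% were called with a lower level in RIPK4.si. CDK6 had a larger estimated difference in the same direction and was called with DESeq2 and after removal of a GC content trend, but not with edgeR alone. DESeq2 called 2 of the 10 genes, CDK2 and CDK6, against 2.78% of all genes it gave an adjusted p. CDK4, the D-type cyclins, CCNE1, CDKN1B and RB1 were called by neither tool, and CCNE2 had the highest estimate without a call. An unadjusted p under 0.05 was found for 3 of the 10, CDK2, CDK6 and CCNE2, and for 10.8% of all genes tested. The groups were without overlap for 4 of the 10, CDK2, CDK6 and CDKN1B with lower levels and CCNE2 with higher levels in RIPK4.si. The same gap in either direction was present in 17.6% of all genes tested. The median log2 fold change was -0.093 over the 10 genes and -0.023 over all genes tested. With 1 library left out, the median of the 10 was between -0.165 and 0.054, the latter without RIPK4.si replicate 1. All 10 passed the filter on low counts.

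**Figure D1:**
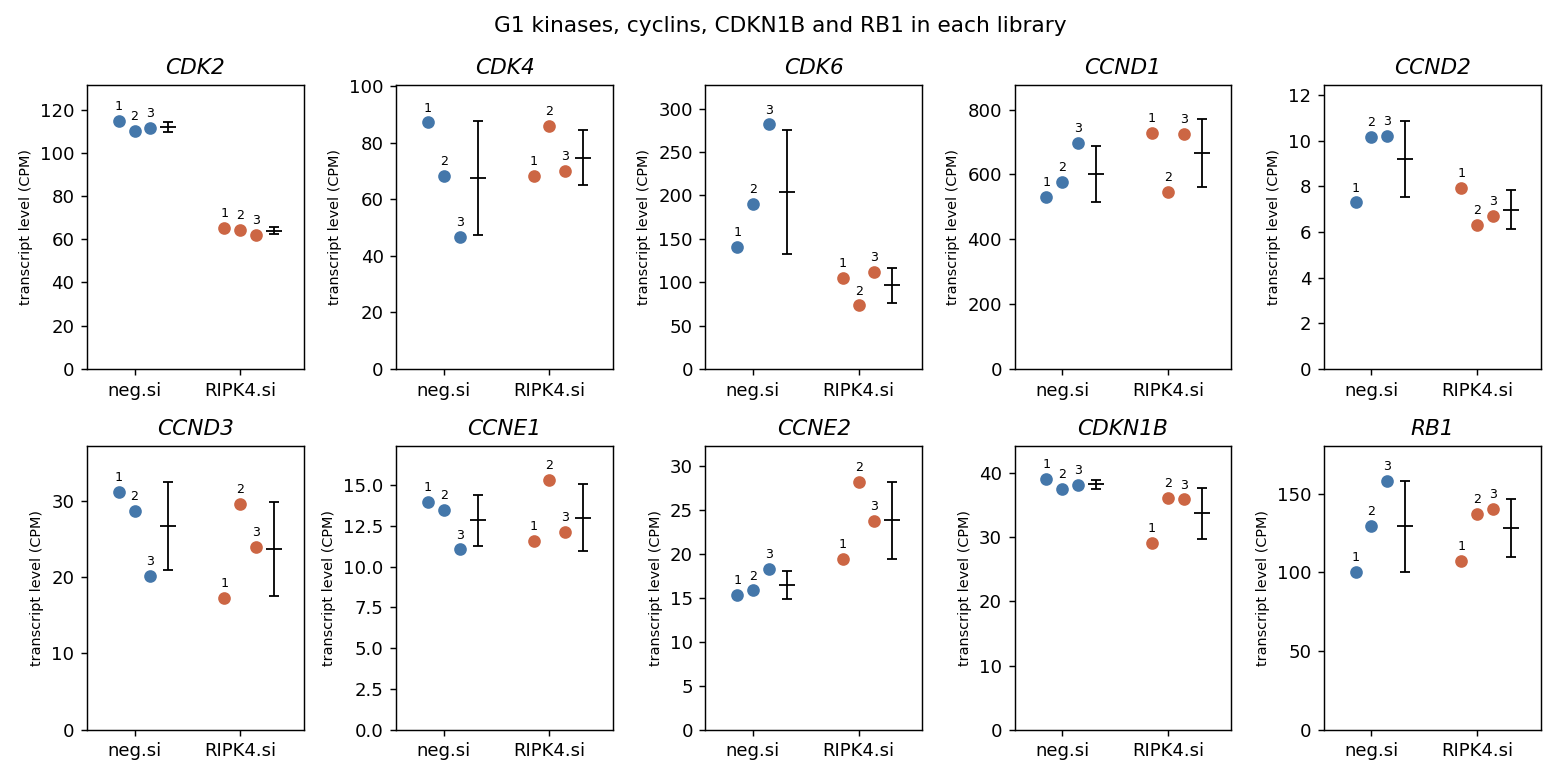
Transcript level in CPM of each of the 10 genes (vertical axes start at 0) in the 3 neg.si and the 3 RIPK4.si libraries, with replicate numbers beside the points and mean ± SD as black bars. The CDK2 points lie between 110.1 and 114.7 CPM in neg.si and between 62.1 and 65.3 CPM in RIPK4.si, with little spread in either group, while the CDK6 points of neg.si spread from 141 to 282 CPM.

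CDK2, the kinase partner of cyclins E and A, is on the plus strand of chromosome 12, from 55966781 to 55972789 in GRCh38 (ENSG00000123374.11). HTSeq assigned 3553, 3306 and 3543 read pairs to it in neg.si replicates 1, 2 and 3, against 1915, 1855 and 1930 in RIPK4.si replicates 1, 2 and 3. As CPM these were 114.7, 110.1 and 111.5 in neg.si and 65.3, 64.2 and 62.1 in RIPK4.si. The groups were far apart, and within each group the 3 libraries were nearly at the same level. The mean was 112.1 ± 2.38 CPM (SD, n = 3) in neg.si against 63.8 ± 1.64 CPM (SD, n = 3) in RIPK4.si, a level of 56.9% relative to neg.si. Its log2 fold change was -0.81 (standard error 0.132, 95% interval of the fit -1.11 to -0.52, adjusted p = 0.0355 with edgeR), and DESeq2 gave an adjusted p of 0.000115. CDK2 ranked 66 among the genes tested by edgeR p-value. The call was lost when neg.si replicate 1 or 2 or RIPK4.si replicate 1, 2 or 3 was left out (adjusted p = 0.0593, 0.279, 0.184, 0.126 and 0.311 with edgeR), although the log2 fold change was between -0.82 and -0.78 with any 1 library left out. A lower level in bulk RNA does not tell fewer cells with the transcript apart from less transcript per cell.

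CDK2 is contained in the span of PMEL, which encodes a structural protein of melanosomes and is read from the opposite strand of chromosome 12, from 55954105 to 55973317. The counting took no account of strand. In GENCODE release 44 the exons of CDK2 form 6 blocks of 3887 bases in all, of which 89, or 2.29%, also lie in exons of PMEL. These are 2 stretches of 66 and 23 bases, both in the last CDK2 block, 4263 to 4328 and 4964 to 4986 bases from the CDK2 start. The same bases make up 2.42% of the exon bases of PMEL.

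PMEL itself fell in RIPK4.si, from 312, 279 and 249 CPM in neg.si replicates 1, 2 and 3 to 117.5, 104.3 and 119 CPM in RIPK4.si replicates 1, 2 and 3 (log2 fold change -1.30, standard error 0.152, adjusted p = 0.0111 with edgeR). The call was lost without neg.si replicate 2 or without RIPK4.si replicate 1, 2 or 3 (adjusted p = 0.129, 0.0992, 0.0738 and 0.121 with edgeR). The CDK2 level was 36.7%, 39.5% and 44.7% of the PMEL level in neg.si replicates 1, 2 and 3, against 55.6%, 61.6% and 52.1% in RIPK4.si replicates 1, 2 and 3. CDK2 was therefore lowered less than PMEL in these libraries. Within the shared bases the reads of the 2 genes cannot be told apart, and how HTSeq treated pairs that touched both genes is not given in the sources used here. The other exon bases of CDK2 lie between exons of PMEL. With strand ignored, any PMEL read there could also be counted as CDK2. The part of PMEL reads in the CDK2 difference was not tested. CDK2 also shares 565 exon bases (14.54%) with the lncRNA gene AC025162.1 on the opposite strand, which had between 11 and 51 counts per library.

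CDK6, a kinase that binds D-type cyclins, lies on chromosome 7 from 92604921 to 92836594 on the minus strand (ENSG00000105810.9). Its level was 141, 190.0 and 282 CPM in neg.si replicates 1, 2 and 3, against 104.6, 73.2 and 111.5 CPM in RIPK4.si replicates 1, 2 and 3. The groups did not overlap, but the neg.si libraries were wide apart, with replicate 3 the highest and replicate 1 closest to the RIPK4.si libraries. The mean was 204 ± 71.6 CPM (SD, n = 3) in neg.si against 96.4 ± 20.4 CPM (SD, n = 3) in RIPK4.si, a level of 47.2% relative to neg.si. The log2 fold change of -1.08 had a 95% interval of -1.68 to -0.49 and did not pass the adjusted test of edgeR (standard error 0.263, unadjusted p = 0.00245, adjusted p = 0.123 with edgeR over all genes). DESeq2 called CDK6, with an adjusted p of 0.00399. Left-out libraries moved the log2 fold change between -1.27 and -0.78, the latter without neg.si replicate 3, and none of these edgeR fits called CDK6.

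The neg.si libraries differed in how levels followed the GC content of genes. Across genes, which are not independent replicates, the rank correlation of relative level with GC content was 0.555, 0.081 and -0.547 in neg.si replicates 1, 2 and 3, against -0.053, 0.165 and -0.079 in RIPK4.si replicates 1, 2 and 3. CDK6, at 39.7% GC, and RB1, at 37.1% GC, were highest among the neg.si libraries in replicate 3, where CDK4, at 52.0% GC, was lowest. The 10 genes did not all follow this pattern, as CCND1, at 50.3% GC, was also highest in neg.si replicate 3, and CDK2, at 51.5% GC, and CDKN1B, at 42.7% GC, were nearly level. With the GC trend of each library removed, edgeR called 2 of the 10 genes, again CDK2 and CDK6, against 3.27% of all genes tested. In that fit the log2 fold change of CDK6 was -1.02 with a standard error of 0.175 (adjusted p = 0.0195 with edgeR), and that of CDK2 was -0.80 with a standard error of 0.105 (adjusted p = 0.007 with edgeR).

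The long 3' UTR of CDK6, 10219 bases in its longest annotated form, holds 2 copies of ACAGCTT, a 7-base sequence that an earlier look at these same libraries had tied to lower levels in RIPK4.si. Its presence is therefore a description and no independent evidence. Among the 10 genes only CDK6 and CCND3 carry ACAGCTT in the longest annotated 3' UTR, and CCND3 was not called. The 3 sites are printed to show the bases around them, 5' to 3' on the transcript strand with the 7 bases in capitals. The CDK6 sites lie in its 3' UTR on the minus strand of chromosome 7, at 92613546 to 92613552 and at 92612376 to 92612382, and the CCND3 site lies in its 3' UTR on the minus strand of chromosome 6, at 41935327 to 41935333 (GRCh38).
CDK6, position 1588 of the 3' UTR: ggcattgtaaACAGCTTttcctttttc
CDK6, position 2758 of the 3' UTR: cttagtgactACAGCTTattcttctgt
CCND3, position 607 of the 3' UTR: tgtgtgattgACAGCTTtgctgctgaa
Of the 12965 tested genes with an annotated 3' UTR, 16.0% hold ACAGCTT, and the share is 47.3% among the 1159 whose 3' UTR has at least 5000 bases, as that of CDK6 does. Among these 1159 genes the median log2 fold change was -0.082 with ACAGCTT and -0.038 without it. A second 7-base sequence that was searched for, AGCAACC, has 1 copy in the 3' UTR of CDK6 and 1 in that of CDKN1B. Among the same 1159 genes the median was -0.01 with AGCAACC and -0.085 without it. The 3' UTR of CDK2, with 1164 bases, has no copy of either sequence.

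CDK4, which shares the D-type cyclins with CDK6, lies on chromosome 12 from 57747727 to 57756013 (ENSG00000135446.17). Its level was 87.3, 68.5 and 46.9 CPM in neg.si replicates 1, 2 and 3, against 68.3, 86.1 and 70.1 CPM in RIPK4.si replicates 1, 2 and 3. The groups overlapped, and the widest gap was between neg.si replicates 1 and 3. CDK4 had a log2 fold change of 0.15, with a 95% interval of -0.36 to 0.65 (adjusted p = 0.916 with edgeR), and it was 0.39 without neg.si replicate 1, 0.043 if RIPK4.si replicate 2 was left out and, with the sign turned, -0.053 without neg.si replicate 3. Of the 3094 exon bases of CDK4, 44.25% also lie in exons of TSPAN31 on the opposite strand, so counts of this pair are uncertain. TSPAN31 was at 18.6 ± 2.52 CPM (SD, n = 3) in neg.si against 23.4 ± 2.65 CPM (SD, n = 3) in RIPK4.si with no overlap of the groups, and was not called (adjusted p = 0.561 with edgeR).

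Levels of different genes were compared per length, as CPM per 1000 bases of the union of annotated exons (CPM per kb). In neg.si the kinases CDK2, CDK4 and CDK6 were at 28.8 ± 0.611, 21.8 ± 6.53 and 16.7 ± 5.85 CPM per kb (SD, n = 3), and in RIPK4.si at 16.4 ± 0.421, 24.2 ± 3.16 and 7.88 ± 1.67 CPM per kb (SD, n = 3). In neg.si CDK4 and CDK6 were within their spread of each other, and in RIPK4.si CDK4 was above both other kinases in every library. For values given as without shared exon bases, bases shared with other genes were left out of the length only. The counts stayed as they were, so these values are not free of overlap. On that length the neg.si means were 39.2 ± 11.7 CPM per kb for CDK4 and 34.7 ± 0.735 CPM per kb for CDK2 (SD, n = 3). That difference was within the spread of CDK4, and in neg.si replicate 3 CDK2 was higher. Summed, the 3 kinases gave 69.2, 66.0 and 66.9 CPM per kb in neg.si replicates 1, 2 and 3, against 47.4, 50.3 and 47.7 CPM per kb in RIPK4.si replicates 1, 2 and 3. The sum was lower in every RIPK4.si library than in any neg.si library. How close the neg.si libraries were to each other depended on the length used. Over the longest coding transcript the sums were 110.1, 102.1 and 99.1 CPM per kb in neg.si and between 74.7 and 81.1 CPM per kb in RIPK4.si, and without shared exon bases they were 97.6, 89.4 and 84.9 CPM per kb in neg.si and between 68.4 and 75.8 CPM per kb in RIPK4.si. CDK4 made up 40.7%, 33.5% and 22.7% of the sum in neg.si replicates 1, 2 and 3, against 46.6%, 55.3% and 47.5% in RIPK4.si replicates 1, 2 and 3. The ratio of CDK6 to CDK4 per length was 0.408, 0.702 and 1.52 in neg.si replicates 1, 2 and 3, against 0.387, 0.215 and 0.402 in RIPK4.si replicates 1, 2 and 3. The groups did not overlap in this ratio, but neg.si replicate 1 was close to RIPK4.si replicates 1 and 3. Without shared exon bases the ratio was between 0.229 and 0.853 in neg.si and between 0.121 and 0.226 in RIPK4.si. For a single ratio or sum, 3 libraries against 3 cannot give an exact permutation p under 0.1, so these are given as values.

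**Figure D2:**
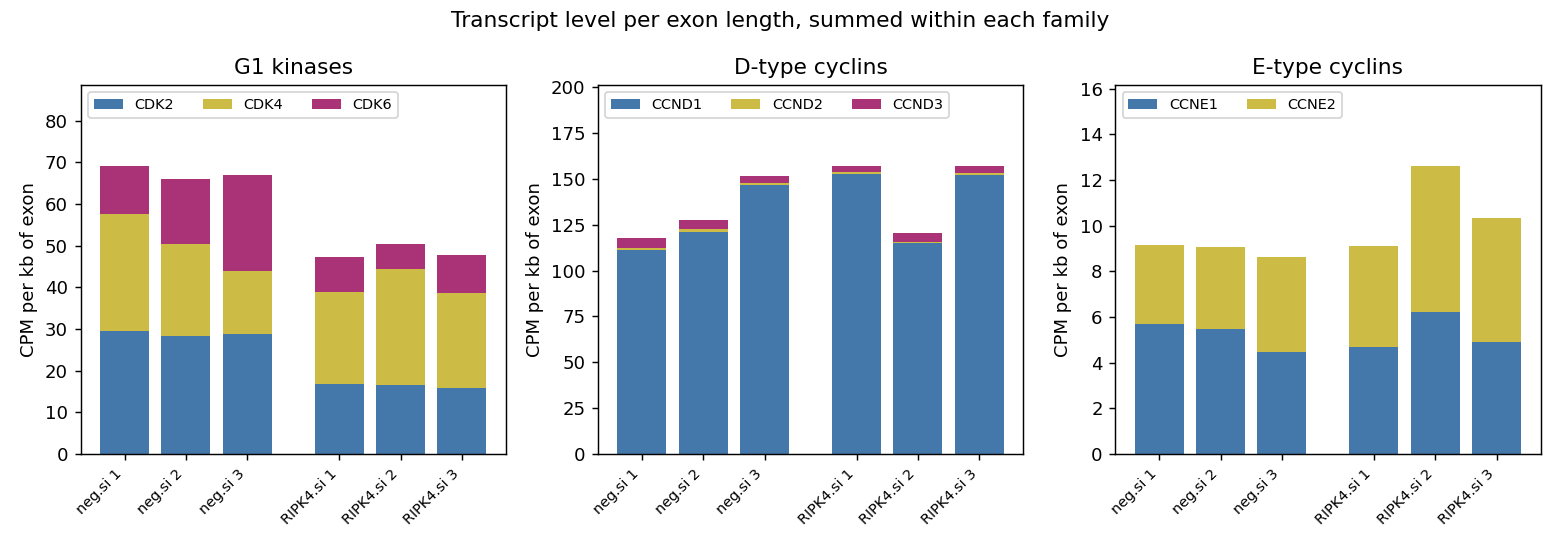
Level per exon length in CPM per kb (axes start at 0) of the G1 kinases, the D-type cyclins and the E-type cyclins, stacked within each family, 1 bar per library. The kinase bars reach between 66.0 and 69.2 in neg.si and between 47.4 and 50.3 in RIPK4.si, and CCND1 fills nearly the whole of each D-type bar.

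CCND1 was the most abundant of the 10 genes per length, at 126.3 ± 18.2 CPM per kb (SD, n = 3) in neg.si against 139.9 ± 21.7 CPM per kb (SD, n = 3) in RIPK4.si, above 98.7% of the genes tested by its neg.si level. RB1, at 20.1 ± 4.49 CPM per kb (SD, n = 3) in neg.si, was between CDK4 and CDK6 and within its spread of both. CCNE1, CCND3, CDKN1B and CCNE2 followed with means between 3.74 and 5.21 CPM per kb in neg.si. Their order depended on the length, since over the longest coding transcript CCND3 and CDKN1B, at 11.1 and 8.82 CPM per kb, were above CCNE1 and CCNE2, at 6.57 and 4.94 CPM per kb. CCND2 was the lowest of the 10 at 1.15 ± 0.208 CPM per kb (SD, n = 3). CCND1, a frequent target of growth factor signals, lies on chromosome 11 from 69641087 to 69654474 (ENSG00000110092.3). Its level was 529.5, 577 and 698 CPM in neg.si replicates 1, 2 and 3, against 727, 547 and 725 CPM in RIPK4.si replicates 1, 2 and 3. The groups overlapped, with RIPK4.si replicate 2 below 2 of the neg.si libraries. CCND1 had a log2 fold change of 0.15, with a 95% interval of -0.26 to 0.55 (adjusted p = 0.884 with edgeR), and it was between 0.081 and 0.28 with 1 library left out. CCND1 shares 10.44% of its exon bases with LTO1 on the opposite strand, which had between 109 and 190 counts per library.

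CCND1 supplied between 94.6% and 97.5% of the D-type cyclin transcripts per length in the 6 libraries. CCND3 followed with between 1.92% and 4.61%. Over the longest coding transcript in place of all exons, the CCND1 share was between 89.9% and 95.3% and the CCND3 share between 4.02% and 9.37%. CCND2 supplied 0.777%, 0.998% and 0.844% in neg.si replicates 1, 2 and 3, against 0.634%, 0.653% and 0.535% in RIPK4.si replicates 1, 2 and 3. D-type cyclin RNA in this line was therefore nearly all from CCND1, in both groups.

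CCND2 (chromosome 12, 4273762 to 4305353) was at 7.30, 10.2 and 10.2 CPM in neg.si replicates 1, 2 and 3 and at 7.94, 6.30 and 6.72 CPM in RIPK4.si replicates 1, 2 and 3. The groups overlapped through neg.si replicate 1. The log2 fold change of -0.40 had an interval of -0.86 to 0.059 and was not called (adjusted p = 0.546 with edgeR). Of the CCND2 exon bases, 13.83% also lie in exons of other genes, and 12.51% lie in those of the protein-coding gene ENSG00000285901 on the same strand. CCND3 (chromosome 6, 41934933 to 42050357) was at 31.2, 28.7 and 20.1 CPM in neg.si replicates 1, 2 and 3 and at 17.3, 29.6 and 24.0 CPM in RIPK4.si replicates 1, 2 and 3. The groups overlapped, and both extremes, neg.si replicate 1 and RIPK4.si replicate 1, had the same number. Its log2 fold change was -0.17 (interval -0.71 to 0.36, adjusted p = 0.904 with edgeR), and 0.019 without RIPK4.si replicate 1.

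The E-type cyclins CCNE1 and CCNE2 activate CDK2 late in G1. CCNE2 (chromosome 8, 94879770 to 94896678, ENSG00000175305.17) was at 15.3, 15.8 and 18.2 CPM in neg.si replicates 1, 2 and 3 and at 19.4, 28.1 and 23.7 CPM in RIPK4.si replicates 1, 2 and 3. Every RIPK4.si library was above every neg.si library, with a narrow gap between neg.si replicate 3 and RIPK4.si replicate 1. The mean was 16.5 ± 1.56 CPM (SD, n = 3) in neg.si against 23.8 ± 4.36 CPM (SD, n = 3) in RIPK4.si. For CCNE2 the log2 fold change of 0.53 had a 95% interval of 0.12 to 0.94 and did not pass the adjusted test (standard error 0.184, adjusted p = 0.301 with edgeR), nor did it with DESeq2 (adjusted p = 0.206). Of the CCNE2 exon bases, 37.05% also lie in exons of INTS8 on the opposite strand, which makes its count uncertain. INTS8 was at 65.7 ± 10.4 CPM (SD, n = 3) in neg.si against 68.7 ± 8.36 CPM (SD, n = 3) in RIPK4.si, with a log2 fold change of 0.064 (adjusted p = 0.961 with edgeR).

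CCNE1 (chromosome 19, 29811991 to 29824312, ENSG00000105173.14) overlaps no annotated exon of another gene. It was at 14.0, 13.5 and 11.1 CPM in neg.si replicates 1, 2 and 3 and at 11.6, 15.3 and 12.1 CPM in RIPK4.si replicates 1, 2 and 3. The groups overlapped, with neg.si replicate 3 the lowest and RIPK4.si replicate 2 the highest of all libraries. The log2 fold change of 0.019 had an interval of -0.40 to 0.44 (adjusted p = 0.989 with edgeR). Its sign turned, to -0.073, if neg.si replicate 3 was left out and, to -0.11, if RIPK4.si replicate 2 was. CCNE2 made up 38.0%, 39.7% and 48.01% of E-type cyclin transcripts per length in neg.si replicates 1, 2 and 3, against 48.5%, 50.7% and 52.3% in RIPK4.si replicates 1, 2 and 3. The groups did not overlap, but neg.si replicate 3 and RIPK4.si replicate 1 were less than 1 percentage point apart. Without shared exon bases the CCNE2 share was between 49.4% and 59.5% in neg.si and between 59.95% and 63.5% in RIPK4.si.

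CDKN1B, which encodes the p27 inhibitor of cyclin E with CDK2, lies on chromosome 12 from 12715058 to 12722369 (ENSG00000111276.11). It was at 39.0, 37.5 and 38.1 CPM in neg.si replicates 1, 2 and 3 and at 29.1, 36.2 and 35.9 CPM in RIPK4.si replicates 1, 2 and 3. The RIPK4.si libraries were all lower, replicates 2 and 3 by little and replicate 1 by more. For CDKN1B the log2 fold change of -0.18 had an interval of -0.52 to 0.16 and was not called (adjusted p = 0.8 with edgeR), and it was -0.074 without RIPK4.si replicate 1. The ratio of CDKN1B to CDK2 per length was 0.143, 0.143 and 0.144 in neg.si replicates 1, 2 and 3, against 0.187, 0.237 and 0.243 in RIPK4.si replicates 1, 2 and 3. The ratio was nearly the same in the neg.si libraries and higher in each RIPK4.si library, where CDK2 was lower. In GENCODE 44 the exons of CDKN1B, 9255 bases in all and starting at 12685498, reach beyond the span given in the count table, so its level per length is uncertain. Over the longest coding transcript the ratio was between 0.176 and 0.177 in neg.si and between 0.230 and 0.299 in RIPK4.si.

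RB1, the substrate of these kinases, lies on chromosome 13 from 48303726 to 48599436 (ENSG00000139687.15), and its exons overlap no other annotated exon. It was at 100.3, 129.7 and 158 CPM in neg.si replicates 1, 2 and 3 and at 107, 137 and 140.3 CPM in RIPK4.si replicates 1, 2 and 3. The groups overlapped almost entirely. Its log2 fold change was -0.013, with an interval of -0.46 to 0.43 (adjusted p = 0.995 with edgeR), and it was between -0.147 and 0.162 with 1 library left out.

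**Figure D3:**
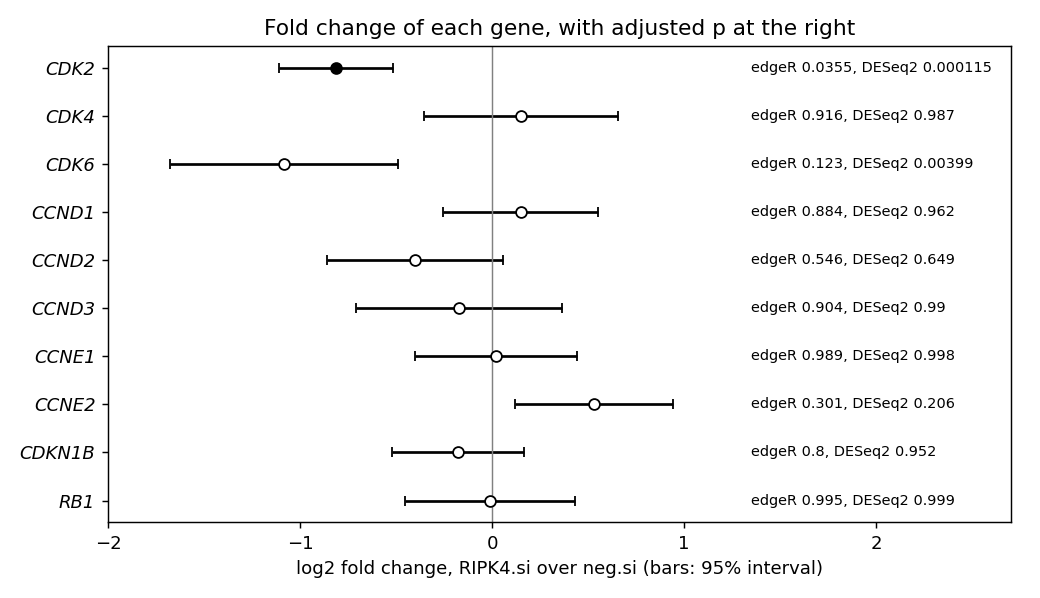
Log2 fold change of RIPK4.si over neg.si for each gene with its 95% interval from the edgeR fit, and adjusted p-values of edgeR and DESeq2 at the right. The filled point, CDK2 at -0.81, is the only edgeR call, and the intervals of CDK6 and CCNE2 also lie to 1 side of 0.

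Genes with the most similar profiles over the 6 libraries were found by the root mean square difference of centred log2 CPM. Being chosen by profile, they have fold changes near that of the matched gene by construction, which is no separate result. For CDK2 these were GPR137B, GPRC5B and ATXN1L, at differences of 0.053, 0.063 and 0.074, each called with a log2 fold change between -0.80 and -0.79 (adjusted p = 0.0397, 0.0406 and 0.0422 with edgeR). For CDK6 they were TMEM245, CBFB and MIA, less close at 0.083, 0.100 and 0.116 and not called (adjusted p = 0.141, 0.158 and 0.283 with edgeR). For CDK4 they were ACOT1, UBL4A and ARHGDIA, and for CCND1 they were KIAA1143, CPSF2 and ARMCX2, none of them called.

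The other genes of the pathway were read from lists. Of the other CDK inhibitors, 4 of 6 were tested and 0 were called with edgeR or DESeq2, with 1 at an unadjusted p under 0.05, where 10.8% of all genes tested were. With 1 library left out the count was between 0 and 2, where between 6.48% and 14.3% of all genes tested were under it. CDKN2A and CDKN2B, which encode p16 and p15, were not analysed here. CDKN1A (p21) had the lowest estimate, with 359, 321 and 227 CPM in neg.si replicates 1, 2 and 3, against 154, 230.5 and 189.5 CPM in RIPK4.si replicates 1, 2 and 3 (log2 fold change -0.66, adjusted p = 0.258 with edgeR). Its groups overlapped by the narrow margin of neg.si replicate 3 and RIPK4.si replicate 2. CDKN2C (p18), an inhibitor of CDK4 and CDK6, had the highest estimate, 0.40 on the log2 scale (adjusted p = 0.465 with edgeR).

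Of the 12 pocket proteins, E2F and DP factors, 0 were called with edgeR or DESeq2. An unadjusted p under 0.05 was found for 2 of the 12 and for 10.8% of all genes tested, and the median log2 fold change of the list was 0.15. The median was 0.027 without neg.si replicate 1, where 6 of the 12 and 13.5% of all genes tested had an unadjusted p under 0.05. It was 0.070 if RIPK4.si replicate 1 was left out and 0.235 if RIPK4.si replicate 2 was. The 2 genes at an unadjusted p under 0.05 over all libraries were E2F5, with the lowest estimate, -0.72 (adjusted p = 0.201 with edgeR), and TFDP2, named after its values were seen, at 0.41 (adjusted p = 0.326 with edgeR), while E2F1 had the highest, 0.485 (adjusted p = 0.508 with edgeR). Of the 8 enzymes that activate or inhibit CDKs, 0 were called with either tool. Only 1 was at an unadjusted p under 0.05, where 10.8% of all genes tested were. That gene was CDC25A, a phosphatase that activates CDK2, at 20.6, 16.9 and 15.4 CPM in neg.si replicates 1, 2 and 3, against 24.9, 31.4 and 25.2 CPM in RIPK4.si replicates 1, 2 and 3. All RIPK4.si libraries were higher, and the difference did not pass the adjusted test (log2 fold change 0.625, adjusted p = 0.191 with edgeR, 0.0853 with DESeq2). PKMYT1, a kinase that inhibits CDK1, had an estimate of 0.33 (adjusted p = 0.838 with edgeR), which was 0.71 without neg.si replicate 1, 0.52 if RIPK4.si replicate 1 was left out and 0.050 if neg.si replicate 3 was.

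SKP2, the F-box protein that marks p27 for degradation, stood apart among the 12 genes of ubiquitin ligases for G1 cyclins and p27. It was at 25.1, 24.6 and 40.4 CPM in neg.si replicates 1, 2 and 3 and at 17.9, 11.2 and 15.7 CPM in RIPK4.si replicates 1, 2 and 3. The groups did not overlap, and neg.si replicate 3 was the highest, as for CDK6. Its log2 fold change of -1.01 (standard error 0.250) was not called with edgeR (adjusted p = 0.128) and was called with DESeq2 (adjusted p = 0.00763) and with the GC trend removed (adjusted p = 0.0238 with edgeR). With edgeR 0 of the 12 were called. DESeq2 called 1, where it called 2.78% of all genes it gave an adjusted p. An unadjusted p under 0.05 was found for 1 of the 12 and for 10.8% of all genes tested. FBXO4 had the next largest estimate, 0.33 (adjusted p = 0.588 with edgeR), and the median of the list was -0.023, between -0.104 and 0.052 with 1 library left out.

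Genes that act after the G1 kinases had small positive estimates. All 18 E2F target genes of S phase entry had a log2 fold change above 0, where 46.6% of all genes tested did, and their median was 0.25 against -0.023 for all genes tested. These genes were read from the same 6 libraries and are not independent replicates. The groups were without overlap for 6 of the 18, all higher in RIPK4.si, and in either direction for 17.6% of all genes tested. With edgeR 0 of the 18 were called, and 1 had an unadjusted p under 0.05, where 10.8% of all genes tested had. DESeq2 called 1, where it called 2.78% of all genes it gave an adjusted p. The count at an unadjusted p under 0.05 was 8 without neg.si replicate 1, where 13.5% of all genes tested were under it, and 6 with GC trends removed, where 15.9% were, with 0 called by edgeR in either fit. The DESeq2 call was MCM6, a subunit of the replicative helicase, at 103.6, 95.2 and 93.6 CPM in neg.si replicates 1, 2 and 3 and at 141, 146.6 and 132.5 CPM in RIPK4.si replicates 1, 2 and 3 (log2 fold change 0.52, adjusted p = 0.144 with edgeR, 0.0493 with DESeq2). All RIPK4.si libraries were above all neg.si libraries for MCM6, while for MCM5, at 0.45 on the log2 scale (adjusted p = 0.513 with edgeR), the groups overlapped. The 18 estimates stayed above 0 with each other normalization, filter and tool, and 17 did without neg.si replicate 3, where the median was 0.17, or without RIPK4.si replicate 1. Of the 5 later cyclins and CDK1, which include CCNA2 from the same list, 0 were called with edgeR or DESeq2. An unadjusted p under 0.05 was found for 0 of the 5 and for 10.8% of all genes tested. CDK1 and CCNA1 were at 0.22 and 0.26 on the log2 scale (adjusted p = 0.709 and 0.938 with edgeR), and that of CCNA1 was between -0.105 and 0.559 with 1 library left out.

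**Figure D4:**
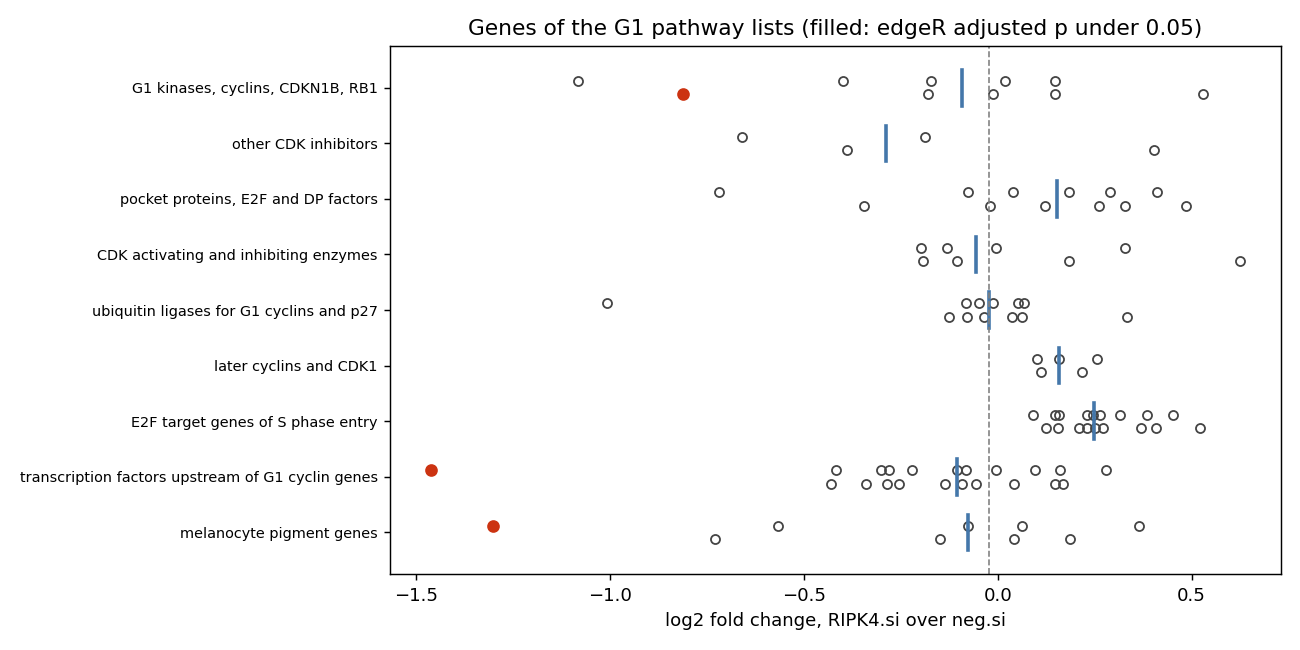
Log2 fold change of RIPK4.si over neg.si (horizontal axis) of each tested gene in the lists of the G1 pathway and the pigment genes, with the median of each list as a blue bar and the median of all genes tested, -0.023, as a dashed line. Filled points are the edgeR calls CDK2, ELK1 and PMEL, and the 18 E2F target genes all lie to the right of 0.

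Of the 21 transcription factors listed upstream of G1 cyclin genes, 1 was called, lower in RIPK4.si with both edgeR and DESeq2. Over all genes tested 0.393% were called lower with edgeR, and DESeq2 called 2.78% of the genes it gave an adjusted p. An unadjusted p under 0.05 was found for 2 of the 21 and for 10.8% of all genes tested. ELK1, an ETS factor activated by ERK, was at 62.8, 54.2 and 38.3 CPM in neg.si replicates 1, 2 and 3 and at 17.4, 21.2 and 17.8 CPM in RIPK4.si replicates 1, 2 and 3. All RIPK4.si libraries were well below all neg.si libraries (log2 fold change -1.46, standard error 0.208, adjusted p = 0.0292 with edgeR). The call was lost without neg.si replicate 2 or without RIPK4.si replicate 1, 2 or 3 (adjusted p = 0.191, 0.148, 0.104 and 0.214 with edgeR). FOXO1, which drives CDKN1B transcription, had an estimate of -0.43 (adjusted p = 0.435 with edgeR), and the median of the list was -0.11, between -0.163 and -0.051 with 1 library left out.

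The identity of the cells was read from markers. Of 10 melanocyte pigment genes 9 were tested, TYR was the most abundant, and OCA2 was at most 1 CPM in every library. Their summed level was 3297, 3233 and 3140 CPM in neg.si replicates 1, 2 and 3, against 2317, 2357 and 2340 CPM in RIPK4.si replicates 1, 2 and 3. The sum was lower in every RIPK4.si library, as CDK2 was, and its part in the CDK2 difference was not tested. It was carried mainly by TYR, DCT and PMEL, while 4 of the 9 tested genes had estimates above 0 and the median of the 9 was -0.076, between -0.188 and 0.010 with 1 library left out. With edgeR 1 of the 9, PMEL, was called, where 0.767% of all genes tested were. DESeq2 called 3 of the 9, where it called 2.78% of all genes it gave an adjusted p. With GC trends removed edgeR called 2 of the 9, where 3.27% of all genes tested were called. An unadjusted p under 0.05 was found for 3 of the 9 and for 10.8% of all genes tested. Besides PMEL, DESeq2 called DCT, at -0.73 on the log2 scale (adjusted p = 0.0854 with edgeR, 0.00361 with DESeq2, 0.0207 with edgeR and GC trends removed). It also called TYR, which was named after its values were seen, at -0.57 (adjusted p = 0.148 with edgeR, 0.0417 with DESeq2). MITF, a transcription factor of pigment genes and of CDK2 that was also named after its values were seen, was at 0.042 on the log2 scale (adjusted p = 0.975 with edgeR).

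Markers of other cell types were low or not specific. Keratinocyte markers summed to between 10.6 and 16.3 CPM, nearly all from KRT10, and KRT5, KRT14, TP63 and DSG3 were at most 1 CPM in every library. KRT10 had an estimate of 0.41 (adjusted p = 0.438 with edgeR). Fibroblast markers summed to between 517 and 1045 CPM, nearly all from COL1A2, while COL1A1, COL3A1 and DCN were at most 1 CPM in every library. LUM and PDGFRB had estimates of 0.87 and 0.38 and were not called (adjusted p = 0.559 and 0.726 with edgeR). Of the leukocyte markers, PTPRC and CD3E were at most 1 CPM in every library, and ITGAM, the most abundant, was between 1.87 and 6.13 CPM. ITGAM was at -0.98 on the log2 scale (adjusted p = 0.167 with edgeR, 0.0477 with DESeq2), and at -1.14 without neg.si replicate 3, where edgeR called it (adjusted p = 0.0452). CD14 was at -0.49 (adjusted p = 0.784 with edgeR).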

How the data were processed

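Each deposited count is the number of read pairs on a gene, without normalization. The authors trimmed reads with Cutadapt, aligned them to GRCh38.p13 with TopHat and counted with HTSeq, ignoring strand. The deposited signal columns hold counts divided by the authors' size factors. The deposited fold columns, a ratio between groups, the deposited log2 values and the deposited p-value columns hold the authors' DESeq2 comparison and were not used.

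Counts were tested across all genes with edgeR 4.0.16 in R 4.3.3 (TMM, filter on low counts, quasi-likelihood test of condition, Benjamini-Hochberg adjustment). The standard error was the log2 fold change divided by the square root of F. CPM used normalized library sizes. Exons, 3' UTRs and GC content came from GENCODE release 44, which held 24416 of the 24526 genes. Alternatives were DESeq2 1.42.0, DESeq2 size factors, upper-quartile normalization, other filters, removal of GC trends (lowess, span 0.3), a replicate block and leaving out each library. Profiles used log2 CPM with a prior count of 2. Figures and tables used Python 3.11.15 with pandas 2.3.3, numpy 2.4.6 and matplotlib 3.10.9.

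The genes and lists were chosen with earlier results of these data known. Genes named by rule were the 10, RIPK4, PMEL and other genes with overlapping exons, and of each list the calls and the 2 largest estimates, with the 3 nearest profiles of CDK2, CDK4, CDK6 and CCND1. A listed marker is not reported here. The test was checked on data simulated with a common dispersion and no GC trend. It called 48% of genes with a log2 change of 1, 97.9% with a change of 2 and 0.0558% without a change. An uncalled gene is therefore not shown to be unchanged. Pairs of replicates differed by more than sampling noise (chi-square per degree of freedom 18.4 to 134).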

Additional observations from a re-analysis of the deposited data

How the results depend on the processing

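The count of genes called, 125 with edgeR, was 430 with DESeq2, 533 with GC trends removed, and between 0 and 295 with 1 library left out. Without neg.si replicate 2, RIPK4.si replicate 1 or RIPK4.si replicate 3 it was 0 with edgeR, where 1153, 1426 and 1086 genes had an unadjusted p under 0.05. Leaving out RIPK4.si replicate 2 gave 4 calls, neg.si replicate 1 gave 70 and neg.si replicate 3 gave 295. Of the 10 genes, 1 was called, 2 with DESeq2 and with GC trends removed (CDK2 and CDK6 each time), and between 0 and 1 with 1 library left out, 1 only without neg.si replicate 3. The cause was not tested.

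Deviations of libraries with the same number correlated at -0.242, 0.251 and 0.346 for replicates 1, 2 and 3, so the numbers were not taken to pair the cultures. Not every library correlated best with its own number. With the replicate block 131 genes and 1 of the 10 were called, and with the block and GC trends removed 434 genes and 2 of the 10. The log2 fold change of RB1 was 0.001 with the block and 0.019 with the block and GC trends removed.

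RB1, at -0.013, changed sign with DESeq2 (0.006), DESeq2 size factors (0.006), no filter on low counts (0.005) and GC trends removed (0.028), all near 0. With 1 library left out, the log2 fold change was between -0.15 and 0.16 for RB1, -0.053 and 0.39 for CDK4, -0.36 and 0.019 for CCND3, -0.11 and 0.11 for CCNE1, -0.10 and 0.56 for CCNA1, and -0.74 and 0.002 for CD14. These genes were not called in any of these fits. Other uncalled estimates that moved by over 1.5 times were between 0.081 and 0.28 for CCND1, -0.22 and -0.074 for CDKN1B, 0.050 and 0.71 for PKMYT1, 0.29 and 0.62 for CDKN2C, 0.28 and 0.73 for E2F1, 0.19 and 0.42 for FBXO4, 0.27 and 0.65 for MCM5, 0.13 and 0.31 for CDK1, 0.50 and 1.21 for LUM, and 0.17 and 0.53 for PDGFRB. Of 447 fold changes over 32 genes and 14 alternatives, 402 kept their sign and their side of the threshold, 17 lost a call, 12 gained one and 16 changed sign.

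Levels per length moved by at least 1 SD in 10 of 20 cases with another length. Without shared exon bases CDK4 was at 39.2 and CDK2 at 34.7 CPM per kb in neg.si, a difference within the CDK4 SD of 11.7, and neg.si replicate 3 had the opposite order. Over the longest coding transcript CDK2 was above CDK4, at 50.1 and 36.2 CPM per kb, and CCND3 and CDKN1B were above CCNE1, at 11.1, 8.82 and 6.57 CPM per kb. CCND1 stayed the highest and CCND2 the lowest of the 10 with each length. Low counts limit CCNA1, LUM and the leukocyte markers.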
